A study of Mus musculus with 8 samples.

Results

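The genes described here encode 10 subunits of the BAF (SWI/SNF) chromatin remodelling complexes, *Arid1a*, *Arid1b*, *Arid2*, *Smarca2*, *Smarca4*, *Smarcc1*, *Smarcc2*, *Smarcd3*, *Dpf3* and *Pbrm1*. Their H3K27Ac peaks were read in P7 mouse ventricles, where *Arid1a* had been deleted in cardiomyocytes. A peak was taken for a gene if its centre lay nearest to a curated RefSeq transcription start of that gene on mm10, which gave 53 of the 45980 annotated peaks. H3K27Ac is an acetylated histone residue that marks active promoters and enhancers, and ChIP-Seq counts the DNA fragments that carry it.

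The controls were 2 *Arid1a* f/f hearts without Cre, and the *Arid1a cKO* hearts were 2 αMHC-Cre;*Arid1a* f/f hearts, all at postnatal day 7 and from lines kept on a C57B/6 J background. Both groups therefore carried the floxed *Arid1a* alleles, and *Arid1a cKO* hearts alone carried the Cre transgene, so the transgene and the deletion cannot be told apart. The αMHC promoter drives Cre in cardiomyocytes, while the other cells of the ventricles keep *Arid1a*. Pups of both sexes entered the study. Each heart gave an H3K27Ac library and an input library. The deposited table holds 0 columns of single samples and gives the log2 of the authors' mean normalized read count per peak in each group. No error between hearts can be given, and the depth of the libraries is unknown. Every difference below is *Arid1a cKO* minus control on that log2 scale. The genes were selected on what they encode and with these log2 differences in view, so the differences are given as a description with no test.

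BAF complexes use the energy of ATP to slide or evict nucleosomes, and their make-up changes with the cell type. Each complex holds the product of either *Smarca4* (BRG1) or *Smarca2* (BRM) as its ATPase, built on a scaffold with the products of *Smarcc1* and *Smarcc2*. The products of *Arid1a* and *Arid1b* define the canonical BAF complex and exclude each other, whereas those of *Arid2* and *Pbrm1* belong to the PBAF form. The heart is known for the subunits encoded by *Smarcd3* (BAF60C) and *Dpf3* (BAF45C), which take part in cardiac muscle gene expression.

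The BAF subunit genes differed little at their transcription starts, and the large differences lay mostly at the distal peaks of *Dpf3*. Of the 53 peaks, 14 were at least 2-fold lower in *Arid1a cKO*, which is 26.4%, against 10.6% of all annotated peaks. None of the 53 was at least 2-fold higher, against 4.57% of all annotated peaks, and the highest difference was 0.93. *Dpf3* held 9 of the 14 lower peaks, *Arid2* 3 and *Arid1b* 2, while the other 7 genes had none. Without *Dpf3* the count was 5 of 38 peaks, or 13.2%, close to the share of all peaks. The median difference was −0.05 over the 53 peaks and 0.01 over all annotated peaks. At the 2-fold limit, the peak just inside had a difference of −1.12 and the peak just outside −0.94, both at *Dpf3*.

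**Figure D1:**
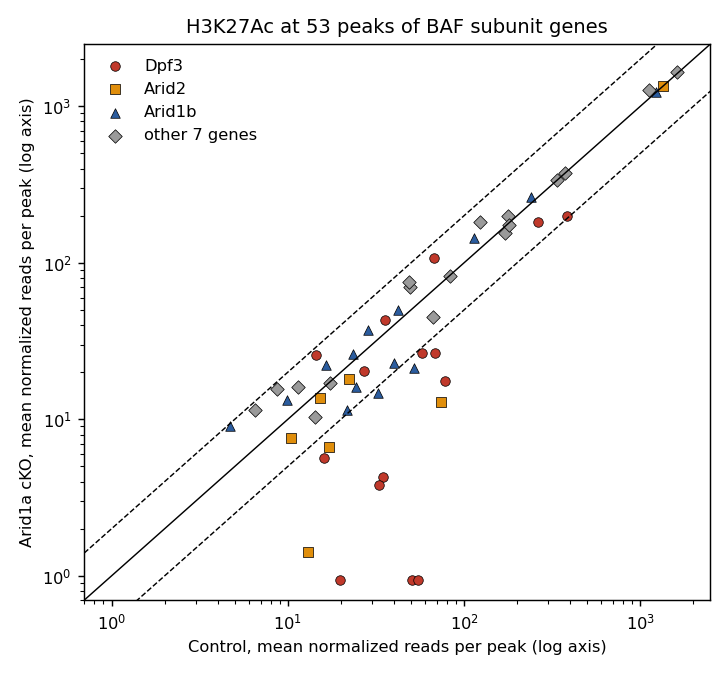
Mean normalized reads in control (horizontal, log axis) and in *Arid1a cKO* (vertical, log axis) hearts for each of the 53 peaks, with 1 point per peak. The solid line marks equal levels and the dashed lines 2-fold differences, and all 14 points under the lower dashed line belong to *Dpf3*, *Arid2* or *Arid1b*.

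A total of 11 peaks lay at a transcription start, 4 with the centre in a promoter window (1000 bp before a start to 100 bp after it) and the others covering a start. None of these 11 was at least 2-fold lower, where 1.76% of the 12100 start peaks of all genes were, and their differences ran from −0.53 to 0.58. Likewise none was at least 2-fold higher, where 1.21% of the start peaks of all genes were. The remaining 42 peaks were distal, and 14 of them (33.3%) were at least 2-fold lower, against 13.8% of all 33880 distal peaks. None of the 42 was at least 2-fold higher, against 5.77% of all distal peaks. Among the 28 distal peaks of genes other than *Dpf3* the share was 17.9%. Summed over the peaks, the distal H3K27Ac of the 10 genes in *Arid1a cKO* was 75.1% of that in controls (91.8% for all distal peaks), and that at the starts was 103%. The 14 lower peaks lay 3.85 to 254 kb from a start, with a median of 77.9 kb, and had 13.0 to 77.7 normalized reads in controls. The other 28 distal peaks lay a median of 40.4 kb away and had 4.72 to 383 reads.

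**Figure D2:**
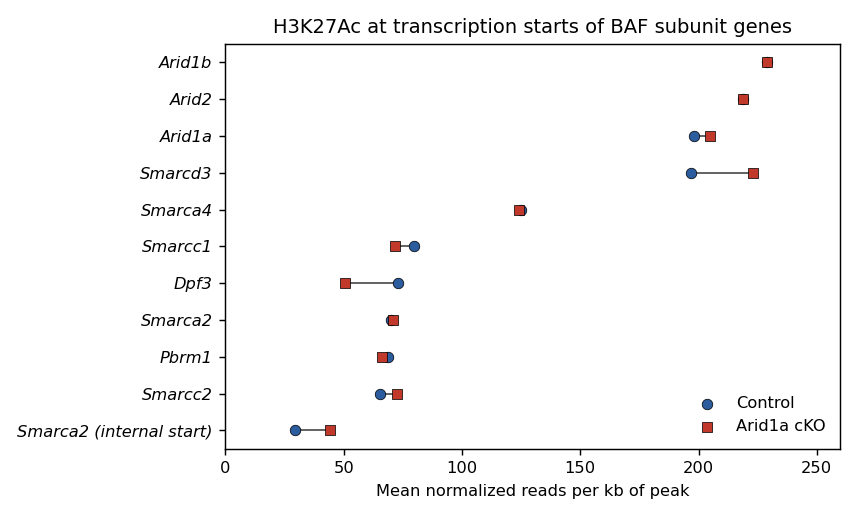
H3K27Ac at the 11 peaks over transcription starts, as the authors' mean normalized reads per kb of peak in control (circles) and *Arid1a cKO* (squares) hearts. The symbols lie close together or overlap at most starts, with wider gaps at *Smarcd3*, *Dpf3* and the internal start of *Smarca2*.

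H3K27Ac at the promoter of the targeted gene was nearly equal in both groups. *Arid1a*, which encodes the large DNA-binding subunit of canonical BAF, lies on the minus strand of chromosome 4 and has 2 curated starts, both under 1 peak of 8105 bp (chr4:133749994-133758098). Its level was 1607 normalized reads in control hearts and 1663 in *Arid1a cKO*, a difference of 0.05. The other *Arid1a* peak, in intron 1 at 7.73 kb from a start, had 17.4 and 17.1 reads (−0.02). The mark was thus nearly equal at both peaks.

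Peaks over the *Arid1a* exons were read in both curated transcripts, because Cre removes the floxed part of the gene. Of the 20 exons, 18 lay under no peak. Exon 1 was covered by the promoter peak, and exon 12 overlapped a weak peak by 15 bp (chr4:133687978-133689068, 10.2 reads in controls, 18.5 in *Arid1a cKO*, difference 0.86). The floxed exon is not given in the sources used here. The widely used floxed strain is generally described as carrying loxP sites around exon 8 (chr4:133693758-133694070), which no peak covered, the nearest one ending 3.31 kb away. H3K27Ac here therefore does not check the deletion, and the genotypes of these hearts rest on the labels. The paper itself reports efficient deletion in cardiomyocytes at P7, from qPCR, immunostaining and lineage tracing. In all, 7 peaks lay over the gene, and 5 of them were nearer to the start of *Mir7227*, a microRNA gene, or of *Pigv*. These 5 differed by −0.08 to 0.86, the strongest being a peak in intron 4 (chr4:133704757-133709715) with 347 reads in control hearts and 362 in *Arid1a cKO*.

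The first 300 bp shown here are the *Arid1a* promoter at the start closest to the middle of the promoter peak (minus strand, GRCm38.p6, which is mm10). It is printed because this is the targeted gene. None of the motifs searched below was found in it, so it has no capitals.
Arid1a promoter, chr4:133753936-133754235: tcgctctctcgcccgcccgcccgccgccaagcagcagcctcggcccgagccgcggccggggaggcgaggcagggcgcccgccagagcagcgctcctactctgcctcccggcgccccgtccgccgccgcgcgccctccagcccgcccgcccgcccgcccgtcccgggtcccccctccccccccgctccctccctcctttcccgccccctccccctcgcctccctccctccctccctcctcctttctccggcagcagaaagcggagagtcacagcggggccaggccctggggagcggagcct

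*Arid1b*, the paralogue that can take the place of *Arid1a* in canonical BAF, had 14 peaks along a gene of 353 kb on chromosome 17. Its start was covered by a peak of 5343 bp (chr17:4993132-4998474), the densest of the start peaks at 229 normalized reads per kb of peak in either group, with a difference of 0.00. The remaining 13 peaks lay in introns. Of these, 2 (15.4%) were at least 2-fold lower, close to the 13.8% of all distal peaks. They had 52.0 reads in control hearts and 21.4 in *Arid1a cKO* at chr17:5084909-5087233 (intron 2, −1.28), and 32.7 and 14.7 reads at chr17:5163189-5164645 (intron 4, −1.15). The other 11 intronic peaks were not past 2-fold, and 8 of them were above 0. The strongest intronic peak, at 195 kb from the start, had 241 reads in control hearts and 265 in *Arid1a cKO* (0.14), and the weakest had 4.72 and 9.0 (0.93). The median difference over the gene was 0.15. A further 4 peaks in the 3′ part of *Arid1b* were nearer to the start of *Ldhal6b*. Of these, chr17:5245843-5249830 had 148 reads in control hearts and 59.3 in *Arid1a cKO* (−1.32), more than any of the lower peaks counted for *Arid1b*.

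*Arid2*, the ARID subunit gene of PBAF, had a start peak of 6122 bp on chromosome 15 with 1342 normalized reads in either group (0.00). All 6 of its other peaks were below 0, and 3 (50%) were at least 2-fold lower, against 13.8% of all distal peaks. The largest loss in reads was in intron 4 (chr15:96351388-96353098), with 73.5 reads in control hearts and 12.8 in *Arid1a cKO*, a difference of −2.52. A peak of 515 bp in intron 3 (chr15:96331026-96331540) had 13.0 reads in control hearts and 1.42 in *Arid1a cKO*. The latter is under the floor of 3 reads used here, so this peak was at least 4.33-fold lower. The third lower peak, also in intron 3 (chr15:96296936-96297601), had 17.1 and 6.63 reads (−1.37). The remaining 3 peaks differed by −0.46 to −0.15 and had 10.4 to 22.3 reads in controls. The lower peaks of *Arid2* were thus weak ones, except for the peak in intron 4.

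The central 300 bp of the strongest lower peak of *Arid1b* and of 2 lower peaks of *Arid2* are printed to show what these regions hold (plus strand, mm10). Capitals mark matches to the motifs searched, of which only CACGTG occurs in these windows.
Arid1b intron 2, chr17:5085921-5086220: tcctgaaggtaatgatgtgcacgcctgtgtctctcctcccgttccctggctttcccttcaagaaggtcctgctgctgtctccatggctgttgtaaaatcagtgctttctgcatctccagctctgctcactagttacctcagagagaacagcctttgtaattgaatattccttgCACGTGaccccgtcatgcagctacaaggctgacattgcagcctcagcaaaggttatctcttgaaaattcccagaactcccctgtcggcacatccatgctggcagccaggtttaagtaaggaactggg
Arid2 intron 4, chr15:96352093-96352392: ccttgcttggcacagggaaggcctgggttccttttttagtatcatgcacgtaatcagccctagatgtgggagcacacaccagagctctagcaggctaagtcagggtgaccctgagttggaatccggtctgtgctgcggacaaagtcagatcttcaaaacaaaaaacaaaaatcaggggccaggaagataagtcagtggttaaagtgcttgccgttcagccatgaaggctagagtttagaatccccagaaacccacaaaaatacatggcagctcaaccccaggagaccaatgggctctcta
Arid2 intron 3, chr15:96331133-96331432: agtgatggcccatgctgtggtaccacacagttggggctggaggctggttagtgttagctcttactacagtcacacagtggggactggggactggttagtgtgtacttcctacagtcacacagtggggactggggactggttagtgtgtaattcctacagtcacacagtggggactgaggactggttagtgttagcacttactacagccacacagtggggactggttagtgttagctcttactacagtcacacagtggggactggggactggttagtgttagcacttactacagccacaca
The window in *Arid2* intron 3 is made of tandem copies, and its most frequent 12-base word, cacacagtgggg, occurs 5 times. Over that whole peak the most frequent word occurs 8 times, where the median over the 1143 peaks of up to 600 bp is 1. How reads that match several places were treated is not given in the sources used here, and their part in this value was not tested.

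**Figure D3:**
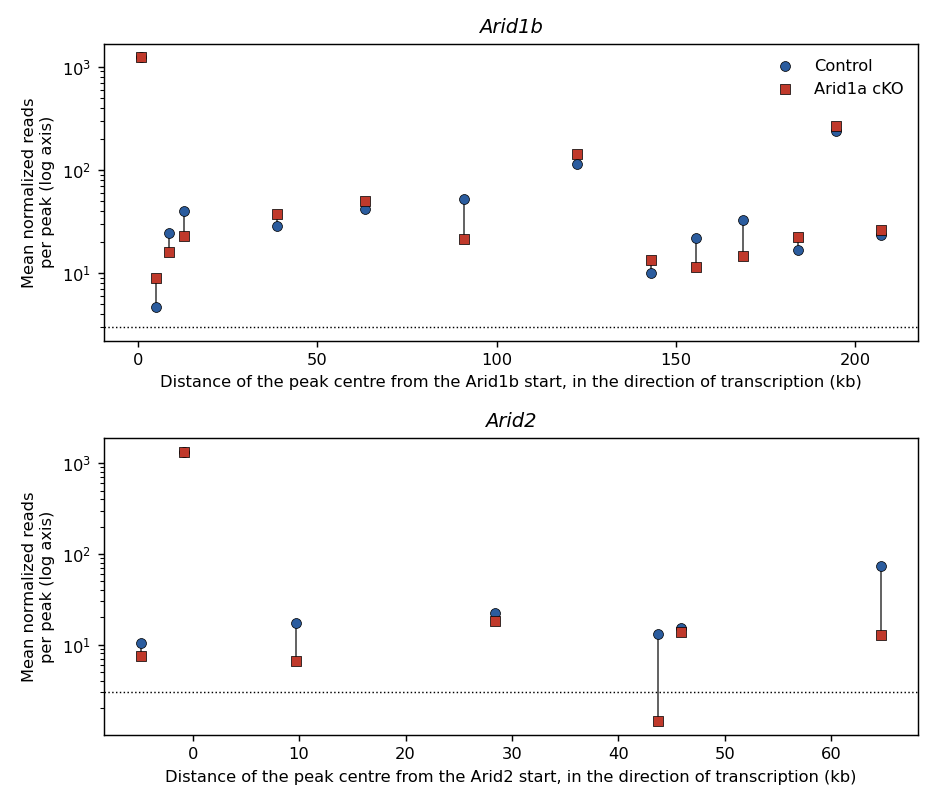
Mean normalized reads of each peak (vertical, log axis) against its distance from the start (horizontal, kb) for *Arid1b* (top) and *Arid2* (bottom), with control as circles, *Arid1a cKO* as squares and the floor of 3 reads dotted. The start peaks overlap fully, while some peaks inside both genes have the square below the circle.

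The ATPase genes had none of the 14 lower peaks. *Smarca4* (BRG1) had 375 normalized reads in control hearts and 372 in *Arid1a cKO* at its start on chromosome 9 (−0.01), and 11.5 and 16.1 in intron 13 (0.49). *Smarca2* (BRM) had 8 peaks and 3 curated starts, 2 of them inside the gene. The upstream start on chromosome 19 had 335 reads in control hearts and 340 in *Arid1a cKO* (0.02). The internal starts lay under 1 peak (chr19:26746509-26750669) with 123 reads in control hearts and 184 in *Arid1a cKO*, a difference of 0.58. The start of the full-length ATPase was therefore nearly equal, and the start of the short transcripts was higher by less than 2-fold. The other 6 *Smarca2* peaks differed by −0.57 to 0.81. Both peaks downstream of the internal starts were above 0, with 6.50 and 11.4 reads at 4.81 kb (0.81), and 48.8 and 75.1 reads at 10.5 kb (0.62).

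The scaffold genes *Smarcc1* (BAF155) and *Smarcc2* (BAF170) each had only their start peak. *Smarcc1* had 171 normalized reads in control hearts and 154 in *Arid1a cKO* (−0.15), and *Smarcc2* 179 and 198 (0.15). *Pbrm1*, a PBAF subunit gene whose product carries bromodomains, had likewise 1 peak, with 180 and 174 reads (−0.05). Inside *Pbrm1*, 2 weak peaks nearer to the start of *Smim4* differed by −0.44 and 0.65. None of these 3 start peaks differed by more than 0.15 in either direction.

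*Smarcd3*, the cardiac BAF60C gene on chromosome 5, had 1121 normalized reads in control hearts and 1269 in *Arid1a cKO* under a start peak of 5691 bp (0.18). Per kb of peak this was 197 and 223 reads, a level in controls that lay at percentile 97.8 of all start peaks. A small peak in intron 1 had 8.69 and 15.7 reads (0.85). Both *Smarcd3* peaks were thus above 0, the second of them weak.

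**Figure D4:**
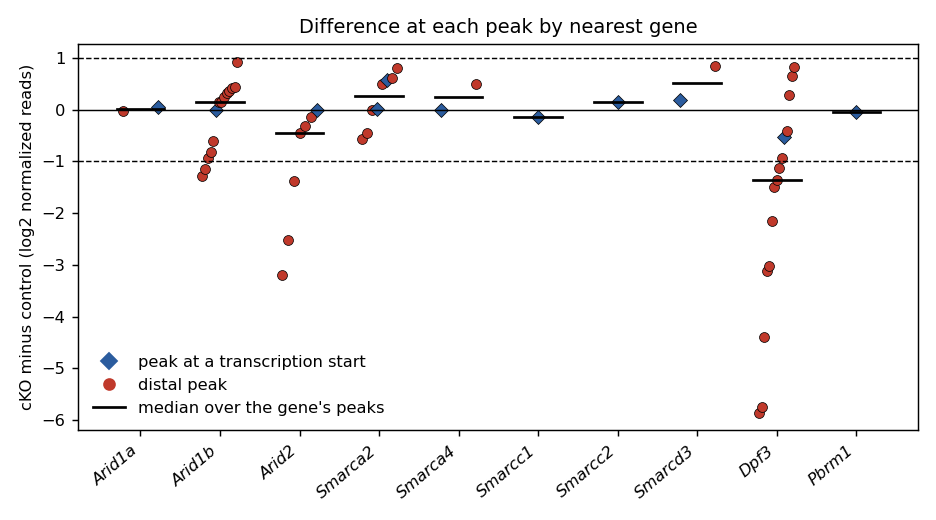
Difference of *Arid1a cKO* minus control in log2 normalized reads (vertical) at each peak of the 10 genes, with diamonds for peaks at transcription starts, circles for distal peaks and bars for the median over a gene's peaks. The dashed lines mark 2-fold, and *Dpf3* alone has its median below the lower line, at −1.36.

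*Dpf3* encodes BAF45C, a subunit with tandem PHD fingers that bind modified histone tails. The gene runs over 274 kb on the minus strand of chromosome 12 (83213751 to 83487736) and had 15 peaks, all inside the gene or over its start. Of these, 9 (60.0%) were at least 2-fold lower and none was at least 2-fold higher, against 10.6% and 4.57% of all annotated peaks. Summed over the 15 peaks, H3K27Ac was 1201 normalized reads in control hearts and 664 in *Arid1a cKO*, or 55.2%. For the other 9 genes together this sum was 103%, but distal peaks held only 1110 of their 7768 reads in controls. Over distal peaks alone it was 51.3% for *Dpf3* and 95.2% for the other 9 genes. The distal peaks of *Arid2* fell further, to 39.7%, with 152 reads in control hearts and 60 in *Arid1a cKO*.

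The start of *Dpf3* (chr12:83485714-83489299) had 261 normalized reads in control hearts and 181 in *Arid1a cKO*, a difference of −0.53 and the lowest among the start peaks. Intron 1 held 6 further peaks, and all had a lower mean in *Arid1a cKO*. The strongest of all 15 peaks (chr12:83410896-83413703, 75.4 kb from the start) had 383 reads in control hearts and 199 in *Arid1a cKO* (−0.94), just short of 2-fold. The peaks at 3.85 kb and 13.4 kb had 68.1 and 26.5 reads (−1.36), and 16.0 and 5.70 reads (−1.49). At 42.3 kb (chr12:83444883-83446036) the peak had 50.6 reads in control hearts and 0.946 in *Arid1a cKO*, the lowest value in the table, which makes it at least 16.9-fold lower. At 62.8 kb there were 77.7 and 17.5 reads (−2.15), and at 112 kb 34.8 and 4.26 (−3.03). Intron 1 thus held 5 of the 9 lower peaks, counting those past 2-fold.

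Past intron 1 the pattern was mixed. The peak in intron 2 at 135 kb had 57.7 reads in control hearts and 26.5 in *Arid1a cKO* (−1.12). The next 3 peaks, at 146, 158 and 159 kb in introns 3 and 4, were not lower by 2-fold, with differences of 0.66, 0.82 and −0.41. The strongest of them had 67.6 reads in control hearts and 107 in *Arid1a cKO*. At 185 kb in intron 6 the level was 32.9 and 3.78 reads (−3.12), whereas at 219 kb, in intron 8, it was 35.5 and 43.1 (0.28). The last 2 peaks in the gene, at 247 and 254 kb also in intron 8, were at the lowest value of the table in *Arid1a cKO*. The former (chr12:83240237-83241665) had 19.8 reads in control hearts and was at least 6.61-fold lower, and the latter (chr12:83232911-83234412) had 54.9 and was at least 18.3-fold lower. The 8 peaks nearest to the start were thus all below 0, and peaks on either side of 0 were found from 146 kb on.

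**Figure D5:**
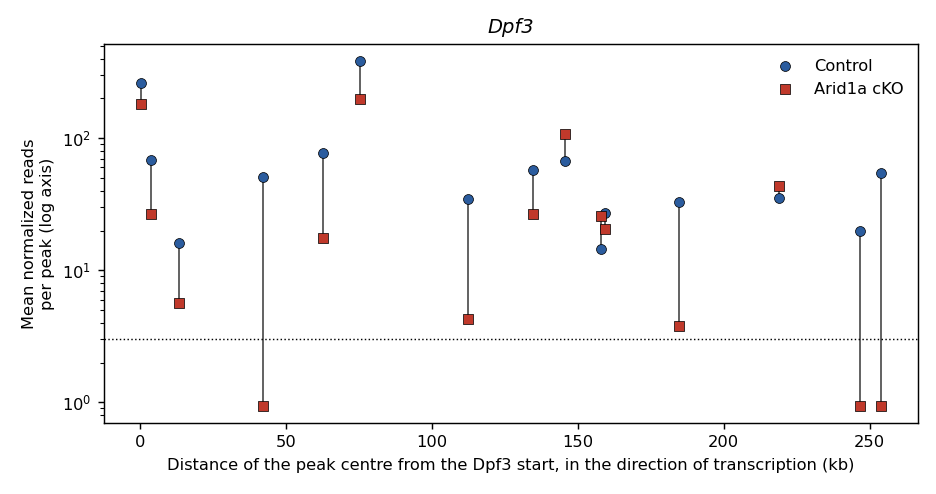
Mean normalized reads of the 15 *Dpf3* peaks (vertical, log axis) against the distance of the peak centre from the start (horizontal, kb), with control as circles, *Arid1a cKO* as squares and the floor of 3 reads dotted. Squares for 3 peaks sit at 0.946 reads, and 3 peaks between 146 and 219 kb have the square above the circle.

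The central 300 bp of the 3 *Dpf3* peaks at the lowest value of the table in *Arid1a cKO* are printed with the *Dpf3* promoter, because the largest differences of the gene fell there (peaks on the plus strand of mm10, promoter on the minus strand from RefSeq, GRCm38.p6). Capitals mark CACCTG, the reverse complement of CAGGTG, and AAGGTCA.
Dpf3 intron 1, chr12:83445309-83445608: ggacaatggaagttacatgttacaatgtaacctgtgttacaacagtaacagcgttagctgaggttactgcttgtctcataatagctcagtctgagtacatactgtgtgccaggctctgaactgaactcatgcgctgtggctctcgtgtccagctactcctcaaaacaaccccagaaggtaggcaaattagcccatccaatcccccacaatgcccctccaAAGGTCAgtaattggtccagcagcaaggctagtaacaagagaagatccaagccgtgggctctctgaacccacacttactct
Dpf3 intron 8, at 247 kb, chr12:83240801-83241100: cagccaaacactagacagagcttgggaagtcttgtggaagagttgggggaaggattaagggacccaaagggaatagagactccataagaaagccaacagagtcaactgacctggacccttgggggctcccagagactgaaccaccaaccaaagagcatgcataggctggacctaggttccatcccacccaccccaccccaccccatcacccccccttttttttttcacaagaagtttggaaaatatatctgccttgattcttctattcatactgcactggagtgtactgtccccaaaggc
Dpf3 intron 8, at 254 kb, chr12:83233511-83233810: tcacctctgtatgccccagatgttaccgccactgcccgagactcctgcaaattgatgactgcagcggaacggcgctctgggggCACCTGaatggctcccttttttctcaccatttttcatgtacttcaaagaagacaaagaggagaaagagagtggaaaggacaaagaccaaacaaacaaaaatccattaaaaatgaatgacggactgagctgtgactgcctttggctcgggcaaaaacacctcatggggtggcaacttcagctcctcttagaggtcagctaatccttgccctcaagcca
Dpf3 promoter, chr12:83487687-83487986: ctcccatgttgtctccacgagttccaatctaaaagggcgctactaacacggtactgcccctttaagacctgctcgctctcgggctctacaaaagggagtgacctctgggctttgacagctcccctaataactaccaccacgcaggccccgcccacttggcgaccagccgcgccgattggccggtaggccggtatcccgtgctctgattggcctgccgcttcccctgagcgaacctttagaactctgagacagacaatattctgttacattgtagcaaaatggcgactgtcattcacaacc
A stretch with AAGGTCA lies in the window of intron 1, and 1 with CACCTG in that at 254 kb. The other window and the promoter hold no match.

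Motif cores were counted on both strands of every peak, for CATTCC (TEAD), AAGGTCA (estrogen-related receptors), CAGGTG (ZEB and SNAI factors), CACGTG (E-box of MYC factors) and the MEF2 core, which reads CTA, 4 bases that are A or T, and TAG. CAGGTG and CACGTG share the form CANNTG, but no stretch can match both. CAGGTG was found in 12 of the 14 lower peaks (85.7%) and in 60.7% of the other 28 distal peaks of these genes. Among all distal peaks it was found in 65.4%, and in 68.2% of those at least 2-fold lower. Per kb of sequence there were 1.31 matches in the lower peaks and 0.616 in the other distal peaks of these genes. In all distal peaks there were 0.751, and in those at least 2-fold lower 0.856. CATTCC was found in 5 of the 14 (35.7%) and in 64.8% of all distal peaks, at 0.535 and 0.649 matches per kb. AAGGTCA lay in 4 and CACGTG in 4 of the 14, where 36.8% and 25.2% of all distal peaks held them. In the central 300 bp alone, CAGGTG lay in 2 of the 14 (14.3%) and in 16.9% of all distal peaks. The counts are small and the peaks differ in width, so they are given as a description only.

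The MEF2 core was found in 0 of the 14 lower peaks, against 8.04% of all distal peaks and 10.2% of all distal peaks at least 2-fold lower. Among the 53 peaks it occurred in 2, both at *Dpf3* and both with a higher mean in *Arid1a cKO*. They are the peaks at 219 kb (35.5 and 43.1 reads) and 146 kb (67.6 and 107 reads). These matches are printed with 10 bases on each side and the core in capitals, because they fall in *Dpf3* peaks that were not lower.
Dpf3 at 219 kb, chr12:83268987-83269016: tcatctgcatCTAATAATAGttatttataa
Dpf3 at 146 kb, chr12:83341543-83341572: taacctatgaCTAAATATAGgcccaggaca
In windows of 300 bp at the centre of all annotated peaks, the share with a match was 1.64% for MEF2, 16.7% for CATTCC, 7.04% for AAGGTCA, 17.7% for CAGGTG and 4.90% for CACGTG. Promoters of 300 bp were at hand for 9 of the 10 genes, with 10 promoters in all. Of these, 1 held CATTCC and 1 held CACGTG, where 14.7% and 7.15% of all 32851 promoters did.

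The rest of the complex was read from a list of 21 further BAF, PBAF and ncBAF subunit genes, of which 17 had peaks. Of their 48 peaks, 9 (18.8%) were at least 2-fold lower, against 10.6% of all annotated peaks, and 1 (2.08%) was at least 2-fold higher, against 4.57%. All 9 were among the 35 distal peaks (25.7%, against 13.8% of all distal peaks). The median difference was −0.08. At their 13 start peaks the differences ran from −0.12 to 0.26. The lower peaks belonged to 5 genes. *Bcl11b*, a zinc finger gene, had both its peaks lower, at 71.5 reads in control hearts and 29.4 in *Arid1a cKO* (−1.28) and at 29.9 and 8.57 (−1.80). *Smarce1*, which encodes the HMG-box subunit BAF57, had a peak of 13.9 reads in control hearts and 2.36 in *Arid1a cKO*, at least 4.64-fold lower. A second *Smarce1* peak had 115 and 53.4 reads (−1.10). *Bicra*, a subunit gene of ncBAF, had peaks with 83.9 and 28.8 reads (−1.54) and with 44.9 and 20.8 (−1.11). *Bcl7a* had 43.4 and 9.51 reads at 42.3 kb before its start (−2.19), and 2 weak peaks before *Actb* differed by −1.17 and −1.02. The higher peak was nearest to *Ss18*, with 14.9 and 34.1 reads (1.19).

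Ventricles hold several cell types, and fewer cells of a type cannot be told apart from less H3K27Ac per cell. At 8 cardiomyocyte marker genes, *Myh6* and *Tnnt2* among them, 43 peaks summed to 23851 normalized reads in control hearts and 22113 in *Arid1a cKO*. Of these peaks, 2 (4.65%) were at least 2-fold lower and 3 (6.98%) higher, against 10.6% and 4.57% of all annotated peaks. At 5 endothelial genes the sum was 10807 and 10975 over 45 peaks, of which 2 (4.44%) were at least 2-fold lower and 1 (2.22%) higher. At 6 fibroblast genes the sum was 3259 and 4383 over 37 peaks. Of these, 34 were above 0, 5 (13.5%) were at least 2-fold higher and none was at least 2-fold lower. Smooth muscle and pericyte genes had 1229 and 1341 reads over 13 peaks. Leukocyte genes had 105 and 154 over 4 peaks, with none at *Adgre1*, and red blood cell genes had 0 peaks. The defining genes of cardiomyocytes thus carried the mark in both groups. The part of the fibroblast and leukocyte marks in the differences above was not tested.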

How the data were processed

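H3K27Ac ChIP-Seq of P7 ventricles was analysed from 2 control and 2 *Arid1a cKO* hearts, grouped by the sample titles. Per the submitters' processing notes and the methods, the authors used BWA 0.7.17-r1188 for alignment (mm10), HOMER for calling broad peaks with all inputs merged as background, and DiffBind 2.12.0 with DESeq2 1.24.0 for the group values, on peaks found in more than 1 sample. Besides the positions, 3 deposited columns were used. The authors deposited in them, on a log2 scale, the mean normalized reads of a peak in all samples, in control and in *Arid1a cKO*. The library scaling and the use of the input in these values are not given in the sources used here. The table's columns with the authors' own fold change, p-value and FDR were not used.

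Peaks were joined to 45756 curated transcripts of RefSeq on GRCm38.p6, the assembly behind mm10. The last peak of each of 21 chromosomes ended inside the reference, and 7 of 45987 peaks on unplaced sequences were left out. Peaks whose centre is in a promoter window, or that cover a start, are called start peaks and all others distal. Group means at or under 3 normalized reads were taken as a floor, and folds against them are lower bounds. A difference of 1 on the log2 scale was called 2-fold. With group means only, no test was possible and no p-value is given. Members and lists were chosen with earlier results of these data known. All members, their start peaks and all peaks past 2-fold are named, and of the other lists the genes with a peak past 2-fold, up to 8 per list by the size of the difference. Other peaks that are named were chosen after their values were seen. Assignment was checked against a direct search on a random draw of the deposited peaks. The 2-fold limit was tried only on simulated peaks with a larger drop and an assumed spread between hearts. That trial therefore does not give the precision of the calls here. Python 3.11.15, numpy 2.4.6, pandas 2.3.3 and matplotlib 3.10.9 were used.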

Additional observations from a re-analysis of the deposited data

How the results depend on the processing

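The count of lower peaks of the 10 genes, 14 as reported, moved with the assignment of peaks, with the distance limit and with *Dpf3*. It was 24 of 78 peaks with starts of protein-coding transcripts only, with 5 of the 10 further lower peaks beyond the 3′ end of *Dpf3*, and the median difference became −0.21. It was 5 of 32 with peaks within 50000 bp of a start only, and 5 without *Dpf3*, an alternative chosen after seeing the data. Of all annotated peaks, 10.6% were at least 2-fold lower. Peaks at least 2-fold higher numbered 1 with protein-coding starts and 1 with peaks inside the gene or up to 5000 bp before it, in each case the same weak peak before *Smarcc2* (3.84 and 10.4 reads). With a limit of 1.5-fold, 18 of the 53 peaks were lower, against 17.3% of all peaks. At that limit 6 were higher, and the matching share of all peaks was not counted. The other BAF subunit genes had 5 lower peaks with the gene body assignment and 14 of 48 with 1.5-fold. The other remodeller genes had 9 lower peaks with protein-coding starts, 3 within 50000 bp and 2 with at least 20 normalized reads in a group. With 1.5-fold they had 11 of 76. Under the other settings the number of peaks in these lists changes and was not counted, so no share is given. The median of *Smarca4* was 0.24 as reported and −0.01 with the gene body assignment and with the filter at 20 reads. Centring on the median over all peaks or over the peaks of highest concentration left 14 lower peaks. In the central 300 bp, matches remained in 2 of the 14 for CAGGTG and in 3 for CATTCC. A promoter window from 2000 bp upstream to 500 bp downstream held 9 of the start peaks in place of 4. Of 80 recomputed medians of single genes, 64 stayed close, 14 moved and 2, those of *Smarca4*, changed sign. The median of *Dpf3* was among those that moved. With 5 normalized reads added to each group mean it was −0.99, just short of 2-fold, with 7 of 15 peaks lower. In that setting 10 of the 53 peaks were lower, against 8.12% of all peaks. With the filter at 20 reads the *Dpf3* median was −1.12, and 10 of 40 peaks of the 10 genes were lower. No replicate could be left out, since the table gives group means. The spread between hearts, and with it the precision of weak peaks, is unknown. No paired analysis was possible because the deposited columns carry no replicate numbers.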

Other observations

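Of 748 genes with at least 10 peaks, 15 others had a share of lower peaks as high as that of *Dpf3*, and 6 had more than 9 lower peaks. The median share over these genes was 7.14%, and that of *Arid1b* was 14.3%. The 5 genes nearest to *Dpf3* in this share, over the 2 group means, were *Mir721* (8 of 13 peaks lower), *Mgat5* (7 of 12), *Ror1* (9 of 16), *Stk39* (9 of 14) and *4933400F21Rik* (6 of 11). Their median differences ran from −1.40 to −1.05, beside −1.36 for *Dpf3*.

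Beyond the 3′ end of *Dpf3*, 7 peaks were nearest to the start of the noncoding gene *1700085C21Rik*, at 318 to 414 kb from the *Dpf3* start. Of these, 5 were at least 2-fold lower, where 10.6% of all annotated peaks and 13.8% of all distal peaks were. Among them were chr12:83142111-83147456 with 405 normalized reads in control hearts and 150 in *Arid1a cKO* (−1.43), and chr12:83133419-83134697 with 44.9 and 3.32 (−3.76). The weakest had 8.88 and 7.11 reads (−0.32).

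Upstream of *Arid1b*, 8 peaks at 49.1 to 497 kb from its start were nearest to noncoding genes. Of these, 3 were at least 2-fold lower, where 10.6% of all annotated peaks and 13.8% of all distal peaks were. The lowest had 170 reads in control hearts and 32.7 in *Arid1a cKO* (−2.38). Of 6 such peaks upstream of *Arid2*, 1 was at least 2-fold lower. Of 2 such peaks before *Smarcc2*, 1 was at least 2-fold lower and 1 at least 2-fold higher.

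A list of 27 genes of the other remodeller families, of which 25 had peaks, was read in the same way. Of their 76 peaks, 5 (6.58%) were at least 2-fold lower, against 10.6% of all annotated peaks, and 5 (6.58%) higher, against 4.57%. All 5 lower peaks belonged to *Chd7*, the CHD remodeller gene mutated in CHARGE syndrome, which had 14 peaks in all. The 5 higher peaks lay at 5 genes, *Smarcal1* (2.35 and 12.3 reads, at least 4.1-fold higher), *Chd7* itself (1.84 and 8.06 reads, at least 2.69-fold higher), *Chd2* (1.54), *Chd9* (1.11) and *Chd4* (1.01). The *Chd7* peak at 19.7 kb from a start had 48.2 reads in control hearts and 4.72 in *Arid1a cKO* (−3.35), and that at 211 kb had 76.6 and 20.4 (−1.91).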
